A study of Caenorhabditis elegans with 8 samples.

Results

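Fasting was compared with feeding in Caenorhabditis elegans that carry the ain-1(tm3681) allele, using messenger RNA from whole adults on 1 Affymetrix array for fed animals and 1 for fasting animals. These are 2 of the 8 arrays of the study, which set ain-1(tm3681) beside wild type N2 and the mutants daf-16(mu86) and drsh-1(ok369), each fed and fasting on 1 array. All animals were kept at 20 °C on plates with FUDR, a drug that blocks the production of progeny. On day 2 they were moved to fresh FUDR plates that held UV-killed OP50 bacteria (fed) or no bacteria (fasting), and they were collected as day 4 adults. The sources used here do not say how many animals went into an array. Every probe set other than the 77 controls belonged to the comparison, 22548 in all. Of these, 15783 were described after the 30% with the lowest mean intensity over the 8 arrays were left out, and they named 11974 genes.

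AIN-1 is a GW182-family protein of the microRNA-induced silencing complex. In that complex an Argonaute protein holds a microRNA that pairs with target messenger RNAs, and the GW182 protein recruits the machinery that shortens their poly(A) tails and represses them. AIN-2 is the second C. elegans protein of this kind and overlaps with AIN-1 in function. The other mutants lack either DRSH-1, the Drosha enzyme that starts the processing of most microRNAs, or DAF-16, the FOXO transcription factor that acts downstream of insulin signalling. Worms without food are known to draw on fat and glycogen stores and to recycle cell contents by autophagy, and many intestinal defence genes are known to respond to bacteria.

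A change below is the difference in log2(intensity + 16), fasting minus fed, so 1 is a 2-fold higher and −1 a 2-fold lower value. The added 16 shrinks the change of dim genes. With 1 array a side no difference within ain-1 has a replicate check or a p-value, and genes were counted at 2-fold without a test. Levels are array intensities and were not compared between genes, since probe sets differ in brightness for the same amount of RNA. In whole animals, fewer cells of a type and less RNA per cell cannot be told apart.

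The arrays had close medians, from 35.1 to 37.7, with 36.3 for ain-1 fed and 36.5 for ain-1 fasting. The median hybridisation control was 220 and 222 on the ain-1 arrays, 235 to 254 on 5 of the other 6, and 330 on the daf-16 fasting array, so the fits that use it were also run without the daf-16 pair. The 3 probe sets of the ain-1 gene itself measured 132, 171 and 63.8 in fed wild type and 99.6, 123 and 56.1 in fed ain-1. In fasting animals they measured 203, 237 and 109 in the wild type and 202, 229 and 106 in ain-1. The sources used here do not say where these probes lie relative to the tm3681 lesion, and they therefore check nothing about the genotype. ain-2 went from 740 fed to 1091 fasting in ain-1 animals and from 737 to 949 in the wild type, changes of 0.55 and 0.36.

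In ain-1, 326 genes (2.72% of those measured) were at least 2-fold higher in fasting and 432 (3.61%) were at least 2-fold lower. With 64 added in place of 16, which shrinks dim genes further, 150 were 2-fold higher. The largest changes were on the lower side, where 128 genes were down at least 4-fold against 24 up. The genes that were higher were dim with food, with a median intensity of 76.3 fed and 234 fasting. Those that were lower were bright with food, with a median of 378 fed and 90.3 fasting, while the median of all genes was 98.8 and 103. Of all genes, 84.7% stayed within 1.5-fold, and the median change was 0.01.

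**Figure D1:**
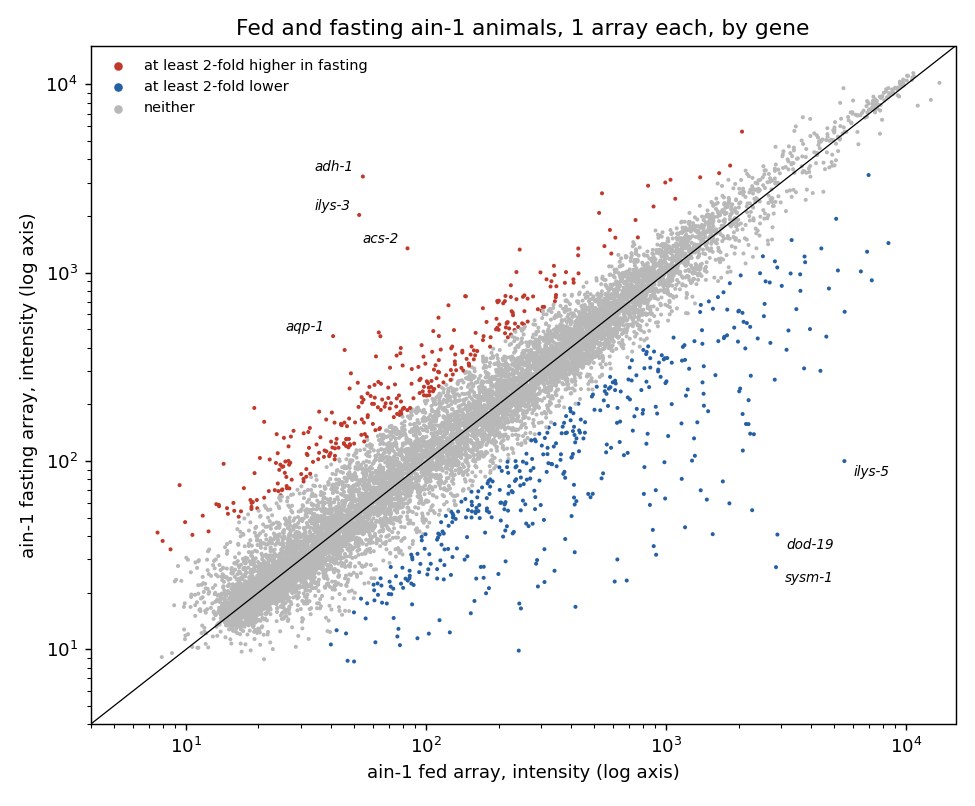
Intensity of each of the 11974 genes on the ain-1 fed array (horizontal, log axis) and the ain-1 fasting array (vertical, log axis), with 1 point a gene and the line of equal values. The 326 genes at least 2-fold higher are red and the 432 at least 2-fold lower are blue, and the labelled sysm-1 and adh-1 lie far from the line, at 2862 fed against 27.3 fasting and at 54.5 against 3241.

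The 3 largest rises were those of adh-1 (5.53), ilys-3 (4.90) and acs-2 (3.77). adh-1, an alcohol dehydrogenase, went from 54.5 fed to 3241 fasting in ain-1, from 191 to 3848 in the wild type and from 62.9 to 1789 in daf-16, and was 358 and 293 in drsh-1. Its ain-1 change of 5.53 lay above those of wild type (4.23), daf-16 (4.52) and drsh-1 (−0.27). acs-2, an acyl-CoA synthetase that primes fatty acids for oxidation, had a change of 3.77 in ain-1 (83.6 to 1347), which was below the 4.76 of wild type and above the 3.37 of daf-16. hacd-1, a hydroxyacyl-CoA dehydrogenase of fatty acid oxidation, went from 237 to 1008 in ain-1, a change of 2.01 against 2.95 in the wild type and 1.58 in daf-16. In drsh-1, hacd-1 was 167 fed and 172 fasting. The other genes among the 15 largest rises that belong to no list were hex-1, a beta-hexosaminidase gene (540 to 2640, 2.26), dct-7 (63.4 to 481, 2.65), C30F12.3 (124 to 671, 2.3), F48E3.6 (61.8 to 359, 2.27), sdz-25 (48.6 to 292, 2.25) and F42A10.7 (145 to 750, 2.25).

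The beta-oxidation and ketone body genes as a list did not follow acs-2 and hacd-1. Of the 29 measured, 2 were at least 2-fold higher and 1 was at least 2-fold lower, 20 were lower in fasting at all, and the median change was −0.18. The gene that was lower was acdh-1, an acyl-CoA dehydrogenase of the propionate breakdown route. It went from 1196 to 44.5 in ain-1, from 1947 to 367 in the wild type, from 307 to 28.6 in drsh-1 and from 896 to 246 in daf-16. It was lower in fasting in every strain, with a change of −4.33 in ain-1 against −2.36, −2.86 and −1.80 in the others.

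Genes that build fatty acids were mostly lower. None of the 25 measured was 2-fold higher and 4 were at least 2-fold lower, with a median change of −0.25. acs-1 and elo-5, an acyl-CoA synthetase and an elongase of monomethyl branched-chain fatty acids, went from 1304 to 132 and from 1503 to 704 (−3.16 and −1.08). fat-7, a delta-9 desaturase, went from 311 to 34 (−2.71), and dgat-2, which makes triacylglycerol, from 623 to 159 (−1.86). The same 4 genes were lower in the wild type too, at −2.59 for acs-1, −0.89 for elo-5, −2.02 for fat-7 and −1.77 for dgat-2.

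Lipases moved apart from each other. The lysosomal lipase gene lipl-1 went from 25.5 to 133 in ain-1 (1.84), while lipl-5 went from 417 to 126 (−1.61) and lips-11 from 243 to 9.84 (−3.32), each in the same direction in the wild type and daf-16. Among proteins that carry fatty acids and retinol, far-7 went from 19.2 to 191 (2.56) and far-3 from 3964 to 502 (−2.94), while the other 2-fold change was far-8, at −1.19. Of the 21 genes of the glyoxylate cycle and gluconeogenesis, 3 were at least 2-fold higher and none lower. These were icl-1, the glyoxylate cycle enzyme that joins isocitrate lyase and malate synthase (1659 to 3378, 1.02), the isocitrate dehydrogenase gene idh-2 (132 to 338, 1.26) and the aldolase gene aldo-1 (153 to 368, 1.18). Below 2-fold were the other probe set of aldo-1, at 0.57, and one of icl-1, at 0.93. The list's median change was 0.01, the same as for all genes. aagr-1 and aagr-2, which encode acid alpha-glucosidases that split glycogen, were lower, at −1.64 and −1.91.

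Several of the genes with the largest decreases belong to intestinal defence. Of 22 intestinal immune genes measured, most of them known as targets of the p38 kinase pathway, 10 were at least 2-fold lower and 1 higher. Their median change was −0.79 (−0.36 with 64 added and −1.32 with 1). sysm-1 went from 2862 fed to 27.3 fasting in ain-1, from 2101 to 12.4 in the wild type, from 598 to 44.3 in drsh-1 and from 1351 to 21.5 in daf-16. dod-19 went from 2900 to 40.7 in ain-1 animals, and it changed least in drsh-1, where it was 2707 and 1053. Their ain-1 changes were −6.05 and −5.68. bcf-1 went from 906 to 31.8 in ain-1 (−4.27) and was near the lower end of the scale on both drsh-1 arrays, at 12.4 and 12. C17H12.8 went from 1560 to 40.9 (−4.79), hrg-11.2 from 1830 to 59.6 (−4.61) and irg-7, an infection response gene, from 1390 to 69.9 (−4.03). Outside the lists, Y105C5B.15 and F28H7.3 were also among the 15 largest decreases, at −4.16 and −4.14. The gene of this list on the higher side was tir-1, at 410 and 922 (1.14). It encodes the TIR-domain adaptor upstream of the p38 kinase and is a signalling gene, not an effector.

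Lysozymes split by family. All 4 of the lys genes that passed 2-fold were lower (lys-2 at −3.85, lys-1 at −2.97, lys-7 at −2.95 and lys-8 at −1.9), of 7 measured with a median of −1.90. With the dim probe sets kept, the median of 10 lys genes was −0.18. The invertebrate-type lysozymes went both ways. ilys-5 went from 5513 to 99.9 (−5.58), ilys-3 from 52.6 to 2026 (4.90), ilys-2 from 17.4 to 71.8 (1.39) and ilys-4 from 194 to 177 (−0.12). ilys-3 differed widely between strains. It went from 38.4 to 975 in the wild type and from 28.1 to 74.5 in daf-16, and it was already at 5308 in fed drsh-1, with 8548 in fasting.

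C-type lectins, secreted proteins that bind sugars and are often induced by microbes, numbered 97 measured, of which 4 were higher and 17 lower, with a median of −0.12. clec-41 went from 1718 to 77.9 (−4.21), clec-50 from 2029 to 242 (−2.98) and clec-173 from 379 to 38.5 (−2.86). clec-266 went the other way, from 245 to 1327 (2.36). clec-47 had opposite signs in different strains. It went from 857 to 352 in ain-1 animals and from 602 to 965 in the wild type and 429 to 686 in daf-16, and it was 77.9 and 75.3 in drsh-1. Caenopores, pore-forming proteins that kill bacteria, had 4 lower and 1 higher of 13, led by spp-18 (1053 to 200) and spp-23 (174 to 27.4). Of 19 nematode-specific nsp peptide genes 8 were at least 2-fold lower and none was higher, with nspg-13, nspg-9, nspg-6 and nspg-10 between −4.25 and −3.53.

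Cuticle collagens were lower as a family. Of the 109 col genes measured, 31 were at least 2-fold lower, none was 2-fold higher, and 102 were lower at all. These proteins form the worm's outer coat and are made in the hypodermis. col-143 went from 4382 to 301 in ain-1, from 5642 to 809 in the wild type, from 1044 to 64.3 in drsh-1 and from 4855 to 812 in daf-16. col-160 went from 2198 to 157 and col-159 from 988 to 63.2 in ain-1 (−3.68 and −3.66). The median change of the 109 genes was −0.36 in ain-1, −0.43 in the wild type, −0.34 in daf-16 and −0.06 in drsh-1, and 30, 29 and 20 of them were at least 2-fold lower in the last 3 strains.

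Within the collagens that were 2-fold lower, the ain-1 change was usually the deepest. For 27 of the 31 it lay below the changes of all 3 other strains, and their median was −2.32 in ain-1 against −1.35 in the wild type, −1.30 in drsh-1 and −1.51 in daf-16. These 31 were picked by their ain-1 change, which favours that order. Over all 109 collagens, 49 had an ain-1 change below the range of the other strains, where 15.8% of all genes did. The fed levels of the 31 were at a median of 0.801 times wild type and the fasting levels at 0.513 times. col-183 differed most, going from 244 to 17.5 in ain-1, from 77.1 to 21.7 in the wild type, from 18.6 to 12.25 in drsh-1 and from 19.5 to 11.3 in daf-16. Among body shape collagens, dpy-4, dpy-13 and sqt-3 were lower, at −1.72, −1.71 and −1.59, and dpy-17 was higher, at 1.01. The other probe set of sqt-3 had the opposite sign, at 0.51.

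**Figure D2:**
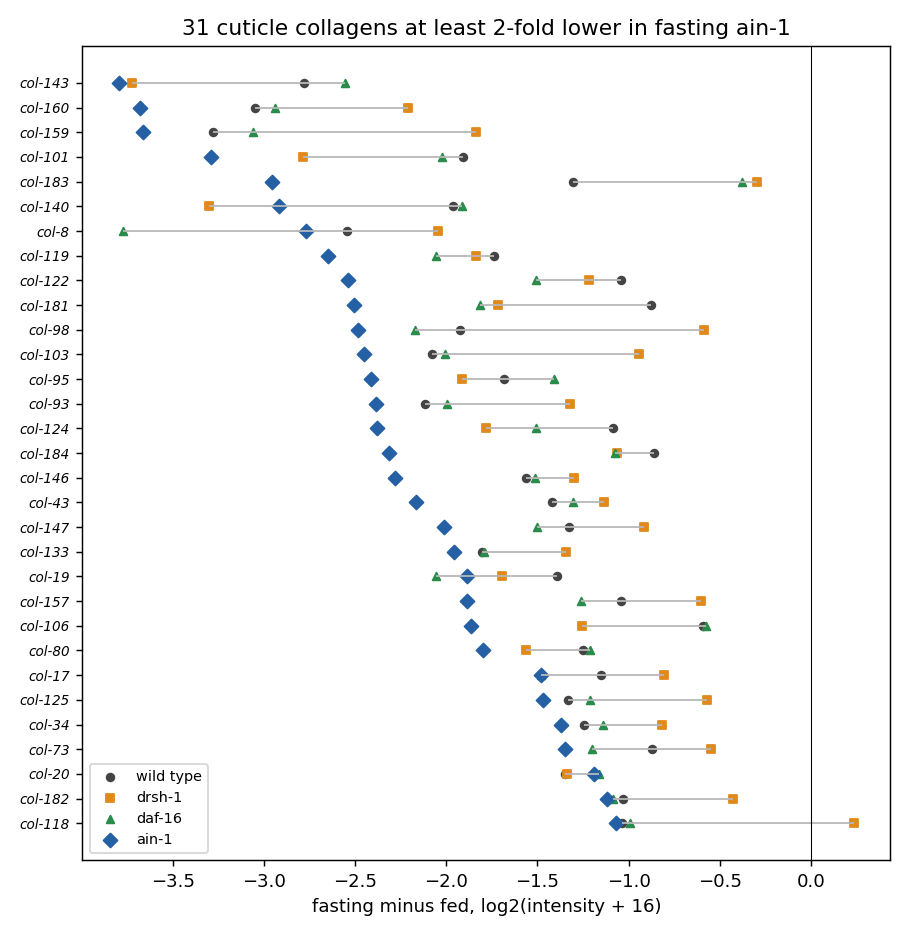
Change in log2(intensity + 16), fasting minus fed, of the 31 cuticle collagens that were at least 2-fold lower in ain-1, with 1 point for each strain (1 fed and 1 fasting array each). Grey lines span the other 3 strains, and the blue ain-1 diamond lies to the left of that span for 27 of the 31.

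The major sperm proteins, which form the cytoskeleton of nematode sperm and signal to oocytes, were high on the ain-1 fed array. The median intensity of the 23 msp genes measured was 307 on that array and 109 on the ain-1 fasting array. It was 85.8 and 68.1 in the wild type, 72.6 and 80.5 in drsh-1, and 75.9 and 58.5 in daf-16, fed and fasting. Each of the 23 had its highest value of the 8 arrays on ain-1 fed, at a median of 3.56 times fed wild type. In fasting ain-1 they were still at 1.61 times fasting wild type. Summed over the 23, the intensity was 9611 on ain-1 fed, 3389 on ain-1 fasting and between 1670 and 2424 on the other 6 arrays.

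All 23 msp genes were lower in fasting ain-1, 19 of them at least 2-fold, with a median change of −1.33. msp-65 went from 1053 to 333, msp-78 from 848 to 247 and msp-38 from 262 to 79.6, while the same 3 genes were at 222 and 213, 154 and 141, and 34.9 and 45.4 in the wild type. No msp gene changed 2-fold in another strain, where the medians were −0.18, 0.08 and −0.24 in the wild type, drsh-1 and daf-16. All 23 were read from probe sets whose names mark them as matching several transcripts. Members of this family are near-identical, so the array does not tell them apart and the 23 are not separate observations. RefSeq lists 31 protein-coding msp genes.

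Of the 37 genes measured from other sperm families, 16 had their highest value of the 8 arrays on ain-1 fed, as did 7.36% of all genes. They had a median intensity of 45.4 and 30 in fed and fasting ain-1 and 35.8 and 30.8 in the wild type. Their median change in ain-1 was −0.16, with 1 at least 2-fold lower, nspd-7 (60.4 to 22). msd-2, which encodes a small protein with a major sperm protein domain and was picked after its values were seen, went from 136 to 53.9 in ain-1 and was between 32.8 and 51.2 on the other 6 arrays. On the ain-1 fed array 32 genes were at least 2-fold above their value on every other array, of which 20 were msp genes and 3 were nspd genes. The msp genes moved with this array, and their part in the other differences of ain-1 was not tested.

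**Figure D3:**
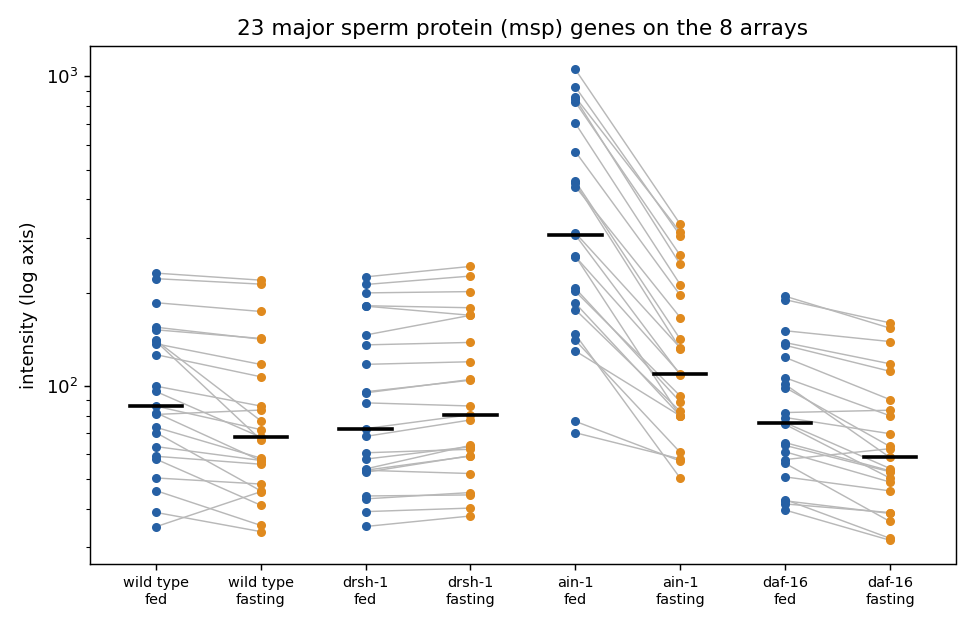
Intensity (log axis) of the 23 msp genes on each of the 8 arrays, with fed arrays in blue, fasting arrays in orange, grey lines joining the 2 arrays of a strain and black bars at the medians. The ain-1 fed array stands above the rest, with a median of 307, and the ain-1 fasting array has a median of 109.

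Of 32 oocyte and eggshell genes 28 were lower at all, with a median of −0.38, and 1 was at least 2-fold lower, cpg-9 (80.1 to 21.2). The 36 P granule and meiosis genes had no 2-fold change and a median of −0.09. The yolk protein gene vit-1 went from 1493 to 183.8 in ain-1 (−2.92), while the other 4 of the 5 yolk genes were below 2-fold. Among 35 cell cycle and replication genes the cyclin D gene cyd-1 was at least 2-fold higher (64.8 to 257, 1.76) and none was lower.

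Of 35 muscle genes 30 were lower at all and 10 were at least 2-fold lower, with a median of −0.47. unc-54, the main body wall myosin heavy chain, went from 433 to 145, unc-27, a troponin I, from 1172 to 404, and tnt-2, a troponin T, from 220 to 67.0. In the wild type the same 3 genes changed by −1.54, −1.64 and −1.96. Of 20 intestinal genes 16 were lower at all and 6 were at least 2-fold lower, among them act-5, the actin of microvilli (414 to 137), and the intermediate filament gene ifb-2 (227 to 69.2). Of the 31 neuronal genes 25 were lower at all, none by 2-fold, with a median of −0.12.

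Lysosomal proteases were lower in fasting ain-1. Of the 27 measured, 13 were at least 2-fold lower, none was 2-fold higher, and 25 were lower at all, with a median of −0.96 (−0.53 over 33 genes with dim probe sets kept). ctsa-1.2, a serine carboxypeptidase of the cathepsin A kind, went from 2277 to 54.8 in ain-1 (−5.02) and by −4.85 in the wild type. The cathepsin B-like gene cpr-6 went from 3024 to 851 (−1.81). cpr-4, another cathepsin B-like gene, went from 3292 to 990 in ain-1 animals and from 2858 to 2080 in the wild type, and was 4319 and 4373 in drsh-1 and 3593 and 3370 in daf-16. Of the 27 genes, 5 were 2-fold lower in ain-1 and in no other strain, as were 0.668% of all genes. They were cpr-4, cpr-1 (−1.37, against −0.97 in drsh-1) and, named after their values were seen, asp-14 (−1.54), cpl-1 (−1.15) and cpz-1 (−1.05). As a list the 27 genes were lower in the other strains too. Their median was −0.93 in daf-16, −0.65 in the wild type and −0.38 in drsh-1, with 11, 8 and 7 at least 2-fold lower.

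Autophagy and ubiquitin ligase genes went the other way. The median over 27 autophagy genes was 0.36, with 3 at least 2-fold higher and none lower: the adaptor gene epg-2 (213 to 706), atg-16.1 (61.4 to 146) and atg-16.2 (241 to 515). The SKP1-related genes, whose products join F-box proteins to cullin ubiquitin ligases, had 8 of 18 at least 2-fold higher and a median of 0.79. skr-10 went from 209 to 688 in ain-1, from 253 to 848 in the wild type and from 251 to 1549 in daf-16, and was 137 and 156 in drsh-1. F-box genes had 17 of 163 at least 2-fold higher, none lower and a median of 0.23, led by fbxb-15 (59.5 to 201). SKP1 and F-box genes are duplicated families, and near-identical copies can share signal. The 33 proteasome subunits had no 2-fold change and a median of 0.19.

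No gene of 62 cytosolic ribosomal proteins, 54 mitochondrial ribosomal proteins or 35 respiratory chain and ATP synthase subunits changed 2-fold. Their medians were 0.11, 0.10 and 0.29, and 34 of the 35 respiratory genes were higher at all. Of the mitochondrial ribosomal protein genes 34 were higher and 20 lower, between −0.28 and 0.59.

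**Figure D4:**
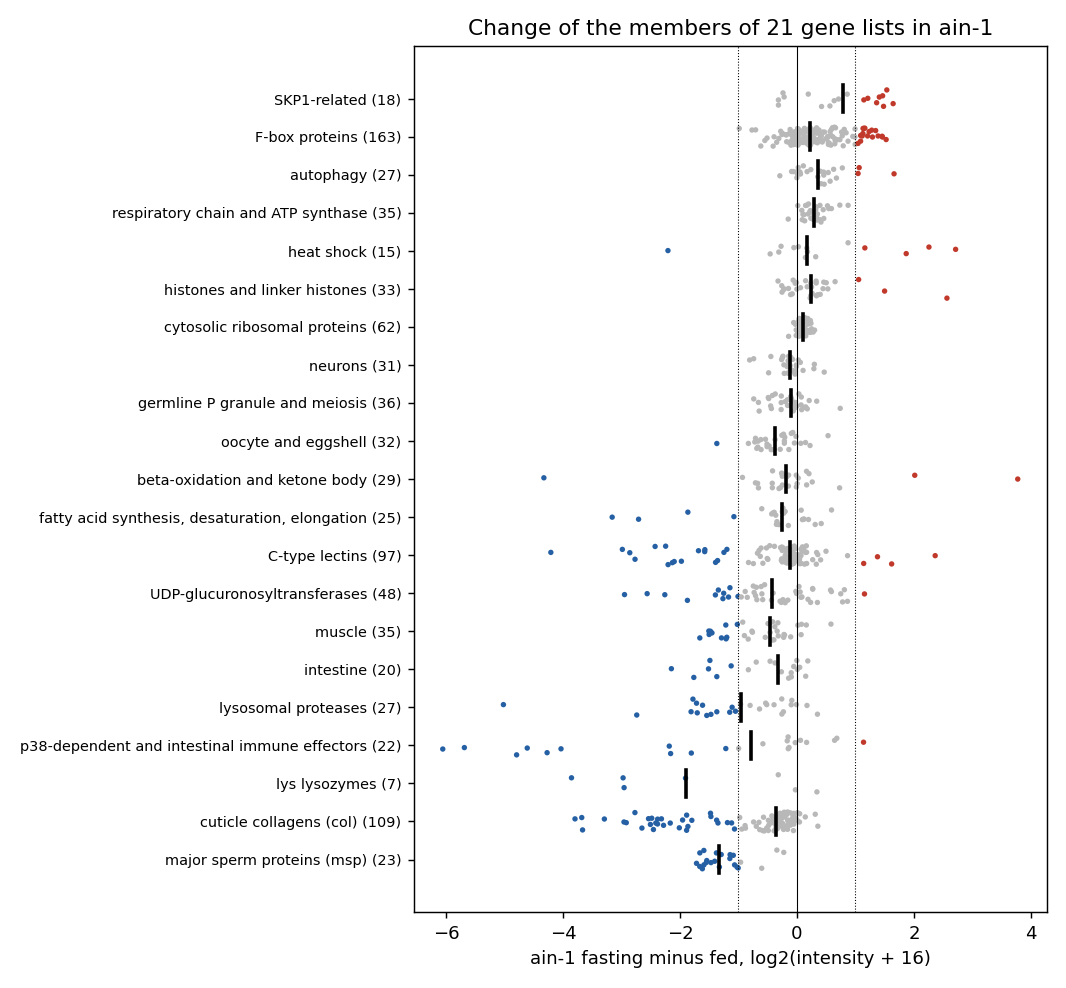
Change in log2(intensity + 16), fasting minus fed, in ain-1 for the measured members of selected gene lists, with 1 point a gene, black bars at the medians, dotted lines at 2-fold and the number measured after each name. SKP1-related genes have a median of 0.79 and the lys lysozymes a median of −1.90.

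Stress genes were mixed. Among 15 heat shock genes 4 were at least 2-fold higher, all of them small heat shock proteins. hsp-16.2 went from 45.7 to 389 (2.71), hsp-16.41 from 21.1 to 161 (2.26), hsp-12.3 from 28 to 145 (1.87) and hsp-12.6 from 7.98 to 37.6 (1.16). hsp-17, also of this class, was lower, from 639 to 126 (−2.2). hsp-12.3 and hsp-12.6 were nearly level in daf-16, at 25.1 and 28.9 and at 9.14 and 9. None of 23 endoplasmic reticulum stress genes changed 2-fold and their median was 0.35.

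Genes that DAF-16 is known to activate had 9 at least 2-fold higher and 3 lower of 20 measured. aqp-1, an aquaglyceroporin, went from 40.9 to 461 (3.07), hil-1, a linker histone variant, from 64.4 to 460 (2.56), and the metallothionein gene mtl-1 from 198 to 707 (1.76). The 3 lower genes were lys-7 (−2.95), far-3 (−2.94) and lys-8 (−1.90). Genes listed as DAF-16 repressed had 7 lower and 1 higher of 16. The higher one was pud-4 (41.5 to 160, 1.61). It was 442 fed and 581 fasting in the wild type and 30.9 and 180 in daf-16. Its levels were thus lower without DAF-16, the reverse of a repressed gene. The insulin-like gene ins-7 went from 422 to 61.2 in ain-1, from 352 to 33.9 in the wild type and from 757 to 174 in daf-16, and was 421 and 427 in drsh-1. It was the only 1 of 19 insulin-like genes measured to pass 2-fold in ain-1. In daf-16 mutants 6 of the 20 activated genes were at least 2-fold higher and 3 lower, where 7.12% and 5.12% of all genes were. Of the 16 genes listed as repressed, 7 were at least 2-fold lower and 1 higher in daf-16 mutants.

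Detoxification genes were lower in part. Of 48 UDP-glucuronosyltransferases, 11 were at least 2-fold lower and 1 was higher, with a median of −0.42 (−0.0929 over 64 genes with dim probe sets kept). ugt-26 went from 1345 to 160 (−2.95) and ugt-22 from 473 to 66.8 (−2.56), while ugt-1 went from 39.6 to 108 (1.15). ugt-25 went from 915 to 179 in ain-1 (−2.26), deeper than the −1 of wild type and the −1.13 of daf-16. Of 46 cytochromes P450, 4 were lower and 1 was higher, and of 32 glutathione S-transferases 4 were lower and none higher. Their medians were −0.05 and −0.11. Of all genes 3.61% were lower and 2.72% higher. folt-2, a folate transporter gene, went from 609 to 22.9 (−4.01). The 23 folate and methionine cycle genes, folt-2 included, had a median of −0.01.

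Families of regulators differed in how many members passed 2-fold. Of 145 nuclear hormone receptor genes 5 were at least 2-fold higher and none lower, with a median of 0.08. Among all genes 2.72% were higher, a share near that of these receptors. The largest rises among them were in sex-1 (214 to 752, 1.74) and nhr-61 (87.1 to 308, 1.65). Neuropeptide genes had 5 higher and 1 lower of 71, led by nlp-51 (70.7 to 313). That is a larger share higher than the 2.72% of all genes. None of 220 chemoreceptor genes passed 2-fold. Their median intensity in ain-1 was 19.7 fed and 19.3 fasting, near the lower end of the scale. With 16 added, a 2-fold fall from such levels could hardly be measured. Among hedgehog-related and patched-related genes 5 of 56 were lower and 1 was higher, where 3.61% and 2.72% of all genes were. wrt-3 went from 73.2 to 14.7 in ain-1 (−1.54) and had −0.57, −0.25 and −0.76 in the wild type, drsh-1 and daf-16.

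By each gene's brightest probe set, no gene of the microRNA lists passed 2-fold. A second probe set of alg-2 was at 1.09, one of lin-66 at 1.15 and one of die-1 at 1.05. Of 24 microRNA processing and silencing genes 15 were higher at all, with a median of 0.14. The largest changes were in alg-2, an Argonaute gene (328 to 642, 0.94, against 0.62 in the wild type and 1.55 in daf-16), and in ain-1 itself (0.91, against 0.57 and 1.67). Deadenylation and decapping genes, whose products work with GW182 proteins, had a median of 0.09 over 22 genes. The 16 measured genes were known lin-4 and let-7 targets and their heterochronic partners. Their median was 0.04 in ain-1, 0.04 in the wild type, 0.06 in drsh-1 and 0.27 in daf-16. Among them the largest changes by size were in lin-66 (382 to 661, 0.77) and die-1 (216 to 354, 0.67).

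The ain-1 response was set beside the responses of the other strains, which share no array with it. Of the 326 genes that were higher in ain-1, 195 (59.8%) were also at least 2-fold higher in the wild type, where 2.59% of all genes were, and 291 (89.3%) in daf-16, where 7.12% were. Only 2 of them (0.613%) were so in drsh-1, where 0.0334% of genes were. Of the 432 lower genes, 323 (74.8%) were lower in the wild type (3.5% of all genes), 298 (69.0%) in daf-16 (5.12%) and 120 (27.8%) in drsh-1 (1.11%). Seen from the other strains, these shared genes were 62.9% of wild type's higher and 77.1% of its lower genes, 34.1% and 48.6% of daf-16's, and 90.2% of the 133 lower genes of drsh-1.

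The ain-1 changes were closest to those of wild type. Across the 11974 genes, which are not independent and share the labelling of their arrays, Pearson's r of the ain-1 change was 0.890 with wild type, 0.818 with daf-16 and 0.556 with drsh-1 (Spearman's rho 0.804, 0.734 and 0.234). The ain-1 and wild type changes differed by at least 2-fold for 103 genes, 65 with the lower value in ain-1 and 38 with the higher. With daf-16 this held for 272 genes and with drsh-1 for 564. A total of 109 genes were at least 2-fold lower in all 4 strains, and 2 were at least 2-fold higher in all 4, ilys-2 and T22B7.3 (the latter named after its values were seen).

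**Figure D5:**
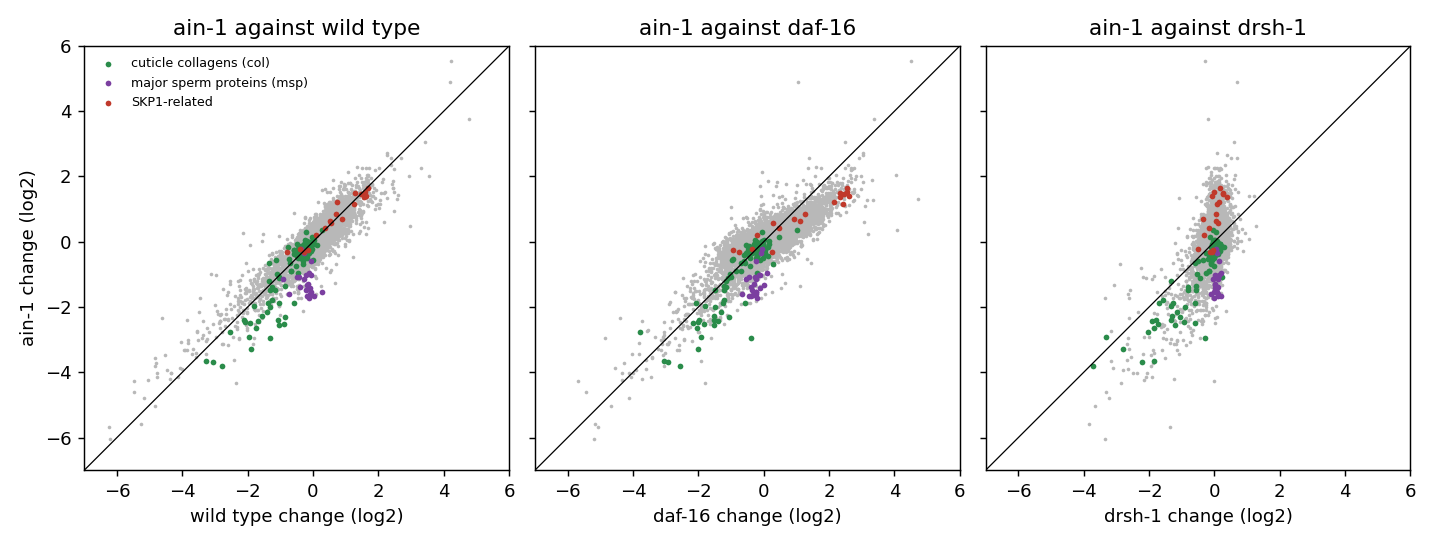
Change in ain-1 (vertical) against the change in the wild type, daf-16 and drsh-1 (horizontal) for 11974 genes in grey, all as log2(intensity + 16), fasting minus fed, with cuticle collagens in green, major sperm proteins in purple, SKP1-related genes in red and the line of equal change. Pearson's r is 0.890, 0.818 and 0.556, and 22 of the 23 major sperm proteins lie below the line in every panel.

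A fit without any ain-1 array asked which genes changed with fasting in the other 3 strains taken as replicates. limma with strain as a block, on 6 arrays, called 88 genes lower (0.735%) and 2 higher (0.0167%) at an adjusted p under 0.05. In ain-1, 86 of the 88 were at least 2-fold lower and all 88 were lower at all. Both genes called higher, T22B7.3 and Y50E8A.1 (the latter also named after its values were seen), were at least 2-fold higher in ain-1, at 86.9 and 257 and at 10.6 and 40.5. Called genes include 19 of the 109 collagens, 4 of the 7 lys genes, 4 of the 19 nsp peptides and 3 of the 48 UDP-glucuronosyltransferases. For ctsa-1.2 the change in the other strains was −4.39 ± 0.258 (SE, limma adjusted p = 0.0072), and for asp-17, an aspartyl protease, −3.43 ± 0.178 (adjusted p = 0.0072), with −5.02 and −2.74 in ain-1. The counts depend on the strains: without the daf-16 pair 0 probe sets were called higher and 28 lower, without the wild type pair none were called, and without the drsh-1 pair 1593 and 934, against 3 and 112 with all 3.

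Whether ain-1 responded differently from the other strains was tested with all 8 arrays in limma, as the fasting change of ain-1 against the mean change of the other 3. No gene passed an adjusted p under 0.05 (0% each way), and the lowest adjusted p was 0.999986. At an unadjusted p under 0.05 there were 24 genes with a higher change in ain-1 (0.2%) and 101 with a lower change (0.843%). Even together these shares are below what a p threshold of 0.05 would give from independent noise alone. The error of this test also holds the unlike responses of the other strains. The comparison therefore cannot show whether there is an excess. With no adjusted call, no gene is shown to respond differently in ain-1. On simulated data of this design the test recovered 4% of 2-fold, 26% of 4-fold and 64% of 8-fold differences. The simulated arrays had independent noise and no fasting response apart from the added differences. Those shares may therefore not hold for the real arrays, and even in the simulation 2-fold differences were mostly missed. The strains' own responses differ and enter the error, with a median SE of 0.320 for the difference.

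The genes with the largest differences below the other strains were col-183, acdh-1, clec-47, far-3, msp-78, msp-76, msp-38 and cpr-4. The change of col-183 was −2.96 in ain-1 and differed from the mean of the others by −2.3 ± 0.41 (SE, limma adjusted p = 0.999986). For acdh-1 the difference was −1.99 ± 0.46, for clec-47 −1.68 ± 0.40, for far-3 −1.66 ± 0.54 and for cpr-4 −1.54 ± 0.26, each with the same adjusted p. The 3 msp genes differed by −1.55 to −1.60. Of the 23 msp genes, 22 had a change below the range of the other strains, as had 15.8% of all genes. In limma 18 had an unadjusted p under 0.05, again with no adjusted call. Their probe sets share signal, so the 22 and the 18 are not counts of separate observations. Of the 109 collagens 14 had an unadjusted p under 0.05. Over all genes 0.843% had such a p with a lower change in ain-1 and 0.2% with a higher change.

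Above the other strains the largest differences were in ilys-3, adh-1, H39E23.3, hrg-11.3, C30F12.3, C54F6.20, icmt-1 and cnc-1. Those of ilys-3 and adh-1 were 2.93 ± 1.31 and 2.71 ± 1.80 (SE, limma adjusted p = 0.999986 for both), with errors set by the spread of the other strains. H39E23.3 went from 78.3 to 398 in ain-1, from 38.9 to 100 in the wild type, and was 54.4 and 49.6 in drsh-1 and 33.2 and 31.7 in daf-16. icmt-1, which encodes a carboxyl methyltransferase of prenylated proteins, went from 20.3 to 103.8 in ain-1 animals and from 17.3 to 42.7 in the wild type. cnc-1, an antimicrobial peptide gene, went from 14.3 to 96.6 in ain-1 animals and from 15.4 to 56.1 in daf-16. It was the only 1 of 19 genes of the cnc and nlp-29 group to be 2-fold higher in ain-1. In that group 2 were 2-fold lower, cnc-7 (−1.52) and fipr-26 (−1.59). hrg-11.3 was lower in every strain and least so in ain-1 (309 to 48.7, −2.33), where its fed level was below the 2004 of wild type.

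Counted at 2-fold, 80 genes (0.668%) were lower in ain-1 and in no other strain, 19 of them msp genes, and 23 (0.192%) were higher in ain-1 and in no other strain. The 61 that were not msp genes include 5 of 27 lysosomal proteases, 4 of 48 UDP-glucuronosyltransferases (ugt-14, ugt-31, ugt-32 and ugt-63, between −1.34 and −1.01, named after their values were seen) and 4 of 56 hedgehog-related and patched-related genes (grd-5, grl-4, grl-21 and wrt-3, between −1.54 and −1.32), and no collagen. These counts follow from a threshold on 1 array pair a strain and are not tests of a difference.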

How the data were processed

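RNA of 8 samples, 1 for each combination of strain and food, was extracted with Trizol and labelled for 3' in vitro transcription, per the labels' protocols. The authors deposited linear array intensity for each probe set, and the sources used here do not give their method of summarising and normalizing, so the values were used unchanged. Gene names came from the platform annotation, updated to RefSeq names (WBcel235), from the 20766 probe sets with 1 symbol (887 had several, 895 were not listed). A gene is its brightest probe set, and of 2393 genes with several, 1 gene at 2-fold had another moving over 0.5 the other way. The number of arrays limits the precision, and p-values measure the spread between strains, which may be technical in part.

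The 64 gene lists and the comparison were chosen with earlier results of these data known. Named genes were ain-1 and ain-2, the 15 largest rises and falls, the 8 largest differences each way, up to 5 list members each way at 2-fold (the 2 largest where none reached it), and all members of families of up to 10 that moved both ways. Any other gene was picked after its values were seen. Tests used limma 3.58.1 (R 4.3.3), a mean-variance trend, strain as a block and 2 residual degrees of freedom, adjusted by Benjamini-Hochberg over 15783 probe sets, and were tested on simulated data. Alternatives were other filters, pseudocounts of 1 and 64, quantile normalization, median centring, no trend, a 3-fold threshold, leaving out strain pairs and averaging all probe sets of a gene.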

Additional observations from a re-analysis of the deposited data

Results flagged for a closer look

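Among the 231 named genes, those that passed 2-fold in opposite directions in ain-1 and another strain were picked out, and there were 2. The remaining genes were not screened in this way. The cathepsin B-like gene cpr-1 went from 717 fed to 268 fasting in ain-1 (−1.37), from 518 to 1126 in daf-16 (1.1), from 996 to 841 in the wild type and, in drsh-1, from 295 to 143. dod-3, a gene known from screens downstream of DAF-16, went from 202 to 531 in ain-1 (1.33), from 361 to 160 in drsh-1 (−1.1), from 233 to 1179 in the wild type and from 42.7 to 98.0 in daf-16. With 1 array a group, neither of these pairwise differences was tested.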

How the results depend on the processing

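Strain was a block in every fit, which pairs the fed and fasting arrays of each strain, and there are no replicate numbers to pair by. With a pseudocount of 64, 150 genes were at least 2-fold higher in ain-1. At 3-fold there were 79 higher and 207 lower. In the other strains, limma's calls were 0 higher and 2 lower with no mean-variance trend, 1593 and 934 without the drsh-1 pair, none either way (0 and 0) without the wild type pair, and without daf-16 0 higher and 28 lower. The lower calls were 169 with the 50% filter, 192 with median centring and 66 with a pseudocount of 64. With no filter the median of the lys lysozymes was −0.18, of the ilys lysozymes −0.0572, of caenopores −0.31, of UDP-glucuronosyltransferases −0.0929 and of lysosomal proteases −0.53, over lists with more dim genes. The ilys median was 0.93 with a pseudocount of 1 and 0.32 with 64, and that of the intestinal immune genes −1.32 and −0.36. The cause of the other moves was not tested. The difference test gave 0 adjusted calls under every alternative run. Of 189 named genes at 2-fold, 185 kept their side of it with quantile normalization, 189 with a pseudocount of 1, 187 with median centring and 137 with a pseudocount of 64, and none reversed.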

Other observations

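The tyrosine breakdown genes, picked after their values were seen, were lower in fasting ain-1 at the upper steps of the route. tatn-1, the tyrosine aminotransferase, went from 400 to 183.5 (−1.06), hpd-1, the next enzyme, from 274 to 129 (−1), and hgo-1, the homogentisate oxidase, from 490 to 220 (−1.1). gst-42 was at −0.96, and fah-1, the last enzyme, at 0.52. In wild type the 5 changes were −0.84, −0.75, −0.79, −1.42 and 0.34, and in daf-16 they were −0.04, −0.03, −0.21, 0.10 and 1.87. cdo-1, a cysteine dioxygenase picked in the same way, went from 323 to 97.4 in ain-1 animals and from 204 to 143 in the wild type.

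The neighbouring genes ZK228.3 and ZK228.4, also picked after their values were seen, were dim in ain-1 with and without food. ZK228.3 measured 23.7 and 24.7 in ain-1 and 172 and 48.3 in the wild type, and ZK228.4 measured 11.4 and 16.3 in ain-1 and 226 and 68.4 in the wild type. Their changes were −1.55 and −1.52 in the wild type, −1.13 and −1.05 in daf-16, −0.56 and −0.37 in drsh-1 and 0.03 and 0.24 in ain-1. Both were already near the lower end of the scale in fed ain-1, so a lower value in fasting could hardly be measured.

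Changed genes were unevenly spread over the chromosomes. On X 5.49% of genes were at least 2-fold higher and 5.02% lower in ain-1, on IV 2.33% and 5.40%, on V 2.2% and 5.10%, on I 1.82% and 1.25%, and over all 11669 genes with a position 2.73% and 3.66%. Among runs of at least 3 measured neighbours past 2-fold in the same direction, 2 on the higher and 3 on the lower side, were skr-13, skr-9 and skr-8 on the higher side (1.36 to 1.46) and F01D5.1, F01D5.2, F01D5.3 and F01D5.5 on the lower side (−3.08 to −1.30). Neighbours of this kind are often copies of each other, and probe sets can share signal between copies.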
